A study of Mus musculus with 36 samples.

Results

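Spleens were chosen by the measured signal of 1 Affymetrix probe set of Exosc1, the brightest of the 3 on the array, on the log2(intensity + 16) scale. Arrays at or above 8.1 were called high and those below it low, which gave 6 low and 30 high spleens of the 36 in the series. The series holds RNA from the spleens of mice aged 4 months, and the 36 arrays were taken as 36 animals, although the design text also speaks of 13 F2 mice. If some arrays share an animal, each n below counts arrays and not animals. Labels name 18 arthritic and 18 non-arthritic animals of an F2 generation, and the title of the series concerns mice deficient for the interleukin 1 receptor antagonist. Of the low spleens, 4 were arthritic (replicates 10, 14, 15 and 16) and 2 non-arthritic (replicates 3 and 15), and the high spleens were 14 arthritic and 16 non-arthritic. The labels give no genotype, sex or treatment for any mouse, so which alleles the low and high animals carried is not known from them. The B cell receptor subunit gene Cd79a was bright on every array, at 13.1 to 13.6 in low and 12.5 to 13.5 in high spleens, and it is a defining gene of the B cells that make up much of a spleen.

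Exosc1 encodes a cap subunit of the RNA exosome. This complex degrades and trims RNA from its 3 prime end in the nucleus and the cytoplasm, and its targets include ribosomal RNA precursors, small nucleolar RNA precursors, promoter upstream transcripts and faulty messenger RNAs. The cap and the catalytically inactive ring form a channel that leads RNA to the nucleases DIS3 and EXOSC10, and cofactors such as the helicases MTREX (nuclear) and SKIV2L (cytoplasmic) bring RNA to it. In B cells the complex is known for its part in antibody class switching.

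Exosc1 lies on the minus strand of mouse chromosome 19, and its upstream neighbour Zdhhc16, a palmitoyltransferase gene, is transcribed the other way from the plus strand. The RefSeq promoter window of Exosc1 (GRCm38.p6, chr19:41933265-41933564, minus strand) is shown because both genes start inside it. The window runs from 250 bases before to 50 bases after the start the table gives for Exosc1, and capitals mark the 130 bases between the start of Zdhhc16 and that of Exosc1.
Exosc1 promoter: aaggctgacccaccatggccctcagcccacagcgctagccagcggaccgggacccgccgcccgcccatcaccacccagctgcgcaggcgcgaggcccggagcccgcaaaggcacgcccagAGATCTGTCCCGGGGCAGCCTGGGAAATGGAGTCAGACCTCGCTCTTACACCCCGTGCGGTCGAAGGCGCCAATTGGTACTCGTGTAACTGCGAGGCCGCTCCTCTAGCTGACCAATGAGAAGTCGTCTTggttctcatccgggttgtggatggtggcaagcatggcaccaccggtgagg
The windows of both genes overlap by 230 bases. The motif CCAAT was searched for on both strands and was found 3 times in the capitals, with 2 of the matches overlapping each other on opposite strands. Of all 32851 promoter windows of this length in the table, 37.4% hold it. A match describes these letters and is no evidence of a bound factor.

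The level of this probe set chose the groups, so its values are a description with no test. In the low spleens it was 5.91 in arthritic replicate 16, 5.95 in arthritic replicate 15, 6.02 in non-arthritic replicate 15, 6.12 in arthritic replicate 10, 7.26 in non-arthritic replicate 3 and 7.50 in arthritic replicate 14. In the high spleens it ran from 8.32 to 10.01 with a median of 9.28. The low spleens therefore held 4 arrays within a narrow range and 2 of intermediate level. The array just inside the threshold was at 7.50 and the one just outside it at 8.32, whereas the widest gap between neighbouring arrays, 1.13, lay lower, between 6.12 and 7.26. The mean was 6.46 ± 0.72 (SD, n = 6) in low and 9.30 ± 0.38 (SD, n = 30) in high spleens, a label-adjusted difference of -2.84 (SE 0.20) or 7.14-fold. With the clusters described below as a block it was -2.91 (SE 0.23).

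The other 2 probe sets of Exosc1 did not follow the first. The dimmest of the 3 was at 7.93 ± 0.16 (SD, n = 6) in low and 7.28 ± 0.51 (SD, n = 30) in high spleens, which is the opposite direction, with a difference of 0.61 (SE 0.21). Its low spleens lay between 7.74 and 8.21, and 5 of the 30 high spleens reached that range. The remaining one was at 8.90 ± 0.51 (SD, n = 6) in low and 8.55 ± 0.33 (SD, n = 30) in high spleens, differing by 0.38 (SE 0.16), and the groups overlapped widely. A lower level of Exosc1 messenger RNA as a whole is thus not borne out by all of its probe sets, and low and high refer below to the brightest one alone. The probe sequences were not used here, so which transcripts each probe set reads was not tested.

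**Figure D1:**
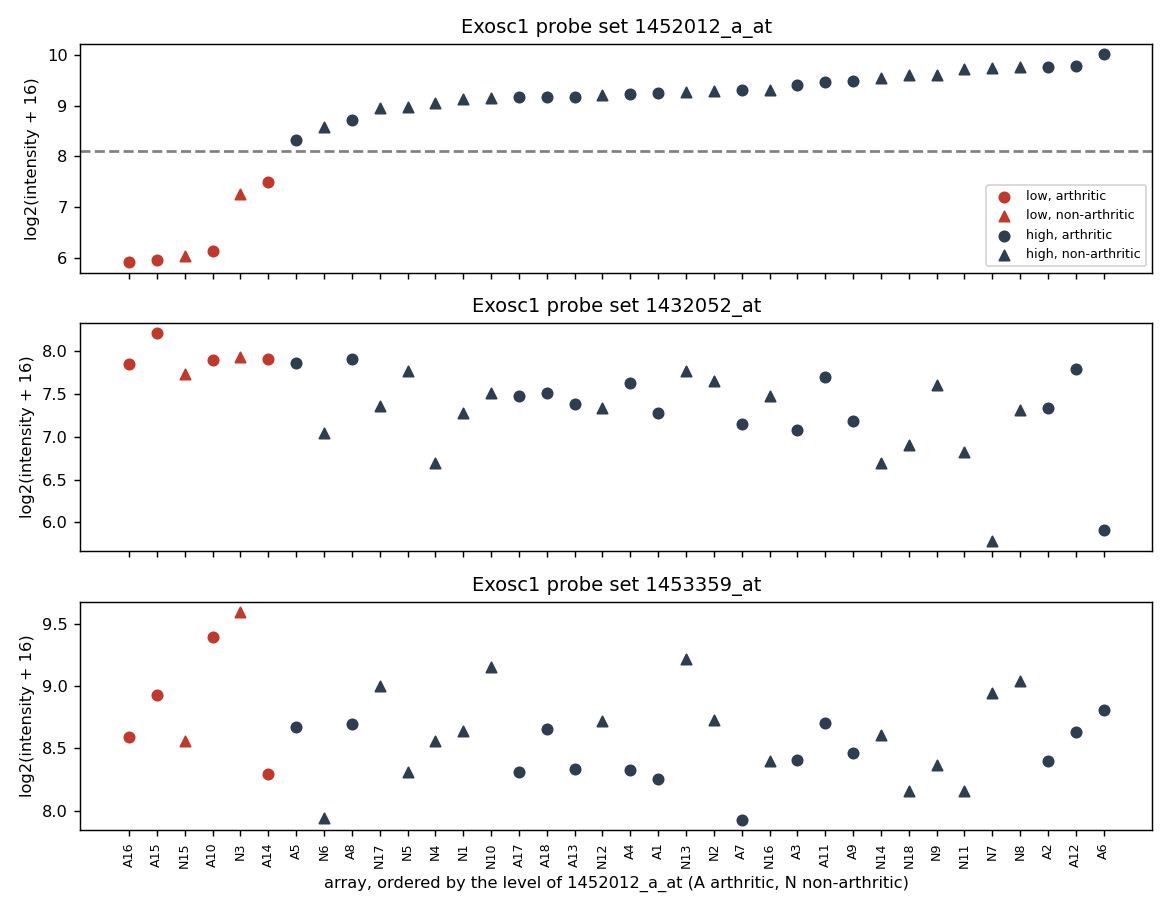
Levels of the 3 Exosc1 probe sets on each of the 36 arrays (log2 of intensity + 16), with arrays in the same order in each panel and the threshold of 8.1 as a dashed line. The 6 low spleens (red) fall to 5.91 to 7.50 in the probe set of the top panel and sit among the higher arrays in that of the middle panel.

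Low spleens were 4 of 18 arthritic and 2 of 18 non-arthritic animals, and no difference between the shares was detected (Fisher's exact test, two-sided, p = 0.658). They did fall together in a technical respect. The hybridisation controls, bacterial transcripts added to each sample before hybridisation, formed 3 clusters over the 36 arrays, called A, B and C here. All 6 low spleens lay in cluster B, which held 16 arrays, and none lay among the 13 arrays of cluster A or the 7 of cluster C. The ratio of the 3 prime to the 5 prime Gapdh control probe sets, a measure of how much of each transcript the labelled RNA covers, had a median of 1.03 in low spleens (0.871 to 1.16) and 1.00 in the high spleens of cluster B (0.846 to 1.13). It was 0.743 in cluster A (0.679 to 0.888) and 0.911 in cluster C (0.834 to 1.02). The corresponding actin ratio was 2.74 in arthritic replicate 14 and at most 1.70 in the other low spleens. The 10 high spleens of cluster B are the ones most like the low spleens in these measures. No run or scan record was used here, so what the clusters stand for was not tested.

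Low and high spleens were compared in limma with the arthritic or non-arthritic label as a term and p-values adjusted by Benjamini and Hochberg's method over every tested probe set. Differences are low minus high on the log2 scale throughout, and a probe set is said to be called, lower or higher, where its adjusted p was below 0.05. Without the probe sets of Exosc1, 1259 of 27019 were called (4.66%), 805 of them lower (2.98%) and 454 higher (1.68%) in low spleens. With 1 probe set per gene, the brightest, 390 of 12426 genes were called (3.14%), 142 lower (1.14%) and 248 higher (2%). No probe set had low and high spleens that did not overlap (0 of 27019, 0%).

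These calls did not outlast the spike-in clusters or the removal of 1 array. With the clusters as a block, limma called 0 probe sets (0%), the lowest adjusted p was 0.604, and 1970 had an unadjusted p under 0.05 (7.29%). Within cluster B alone, 6 low against 10 high spleens, limma also called 0, with 1103 at an unadjusted p under 0.05 (4.08%). As all 6 low spleens lay in cluster B, the block too sets them against its 10 high spleens, so these fits are not separate checks. Having 10 high spleens in place of 30 also leaves less power to call a difference. Without arthritic replicate 14, the array with the high actin ratio, 2 probe sets were called (0.0074%), those of Bves and the dimmer one of Arhgap19. The count was 166 without arthritic replicate 15, 275 without arthritic replicate 16 and 3000 without arthritic replicate 18, which is a high spleen. The differences below are those of the fit with the label alone, and blocked values are those of the fit with the clusters as a block.

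**Figure D2:**
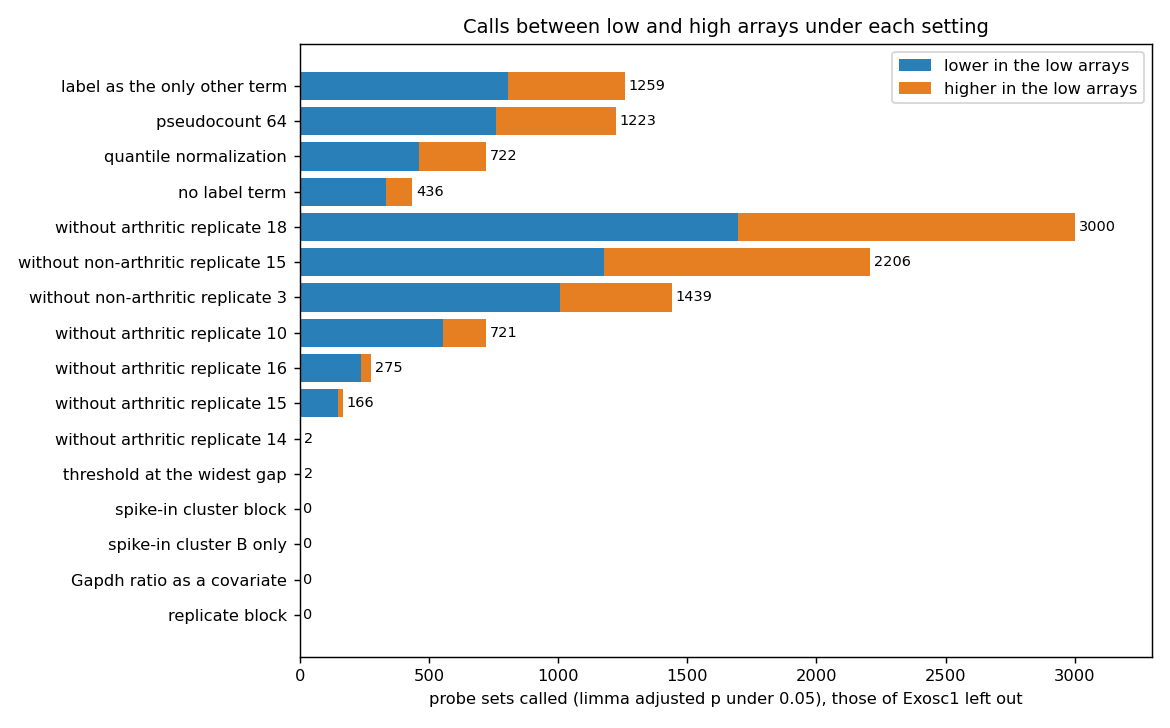
Number of probe sets called (limma adjusted p under 0.05) between low and high spleens in the fit with the label as the only other term and under 15 other settings, split by direction. The bars fall from 1259 to 2 without arthritic replicate 14 and to 0 with the spike-in clusters or the replicate numbers as a block.

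On chromosome 19, 47 of 823 probe sets were called (5.71%), 31 lower (3.77%) and 16 higher (1.94%). On other chromosomes it was 1036 of 21720 (4.77%), with 683 lower (3.14%) and 353 higher (1.63%). Within 10 Mb of Exosc1 it was 16 of 259 (6.18%), and beyond that 31 of 564 (5.5%). By share of probe sets called, chromosome 19 was in place 6, behind chromosomes 15, 4, 2, 16 and 6. No test of the difference between these shares was made, because neighbouring probe sets are not independent.

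Neither of the genes on the 2 sides of Exosc1 was called. Zdhhc16, which starts in the same promoter window, was at 9.24 to 9.87 (median 9.67) in low and 9.10 to 9.999 (median 9.63) in high spleens, with a difference of -0.03 (SE 0.11, limma adjusted p = 0.888). On the other side Pgam1, a glycolytic mutase, was at 11.08 to 11.45 in low and 10.47 to 11.48 in high spleens (difference 0.19, SE 0.08, limma adjusted p = 0.133). Both groups overlapped for both genes. Mms19, part of the machinery that delivers iron-sulphur clusters to DNA enzymes, differed by 0.24 in 1 probe set (SE 0.09, limma adjusted p = 0.106) and by -0.20 in the other.

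Of the 20 nearest genes with a tested probe set, 10 on each side of Exosc1, 3 had a called probe set, as did 987 of all 12426 tested genes (7.94%). Arhgap19, a gene used in cell division that lies 0.16 Mb away, was lower by the dimmer of its 2 probe sets, at 4.998 to 6.70 (median 6.32) in low and 5.80 to 8.19 (median 7.21) in high spleens. Its difference was -1.18 (SE 0.22, limma adjusted p = 0.00745), and 6 of the 30 high spleens lay below the highest low one. With the clusters as a block it was -0.87 (SE 0.25, limma adjusted p = 0.621), and the brighter probe set of the gene differed by -0.51 and was not called. Without arthritic replicate 14, the dimmer one was still called (limma adjusted p = 0.0355). Ubtd1, a ubiquitin-like domain gene 0.06 Mb away, was at 5.53 to 8.38 in low and 7.82 to 9.37 in high spleens. The difference was -0.99 (SE 0.24, limma adjusted p = 0.0231) and became -0.65 with the block. Marveld1, a membrane protein gene, was 0.45 higher by its brightest probe set (SE 0.14, limma adjusted p = 0.0455), while its other 2 probe sets differed by 0.10 and -0.01. The blocked value of the called one was 0.17. The rest of the 20 genes gave differences between -0.53 (the dimmest probe set of Tm9sf3) and 0.39 (Zfp518a), and none was called.

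The 20 called probe sets of chromosome 19 with the largest differences, those of Arhgap19 and Ubtd1 among them, comprised 19 lower and 1 higher. Kif20b, a mitotic kinesin gene 7.0 Mb away, is the one whose lower level was not reduced by the block. It lay at 7.30 to 7.92 (median 7.66) in low and 7.34 to 9.20 (median 8.55) in high spleens, and 3 of 30 high spleens lay below the highest low one. Its difference was -0.79 (SE 0.18, limma adjusted p = 0.0154), -0.88 with the block (SE 0.21, limma adjusted p = 0.621) and -0.91 within cluster B. The probe sets of the other mitotic genes in this group moved closer to 0 with the block. That of Kif11, a spindle motor, went from -0.997 to -0.39. That of Incenp, a subunit of the chromosomal passenger complex, went from -0.94 to -0.30. Other probe sets of Incenp were not called and did not all do so, going from -0.32 to -0.19, -0.35 to -0.61 and -0.04 to -0.27. Papss2, which makes the sulphate donor of the cell, was the probe set that was higher, at 9.13 to 9.80 (median 9.21) in low and 7.82 to 9.37 (median 8.52) in high spleens. Its difference was 0.77 (SE 0.17, limma adjusted p = 0.0135) and 0.44 with the block.

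Malat1, an abundant nuclear noncoding RNA 36.13 Mb away, was lower by 2 of its 7 probe sets, by -1.24 (SE 0.34, limma adjusted p = 0.0355) and -1.18 (SE 0.34, limma adjusted p = 0.0396). Low spleens lay between 8.89 and 12.30 and high spleens between 10.46 and 13.54 in the brighter of them. The blocked values were -0.783 and -1.002, and the 5 probe sets that were not called differed by -1.42 to 0.0087. Without arthritic replicate 14, which gave the lowest values, the differences were -0.79 and -0.72, and neither was called.

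With the block, 75 of 823 probe sets on chromosome 19 had an unadjusted p under 0.05 (9.11%) against 1582 of 21720 elsewhere (7.28%), and 31 of 259 within 10 Mb (12%) against 44 of 564 beyond it (7.8%). Chromosome 19 came in place 2 by this share, after chromosome 15. These shares were not tested either. Of the 20 probe sets with the smallest p in the blocked fit, 18 had a named chromosome. Of these, 3 were on chromosome 19, for Lipa, Kif20b and Dclre1a, where the tested probe sets were 823 on chromosome 19 and 21720 on other chromosomes. Lipa, the lysosomal acid lipase gene 7.43 Mb away, was singled out after its values were seen. It lay at 10.03 to 10.89 (median 10.54) in low spleens and at 8.87 to 10.54 (median 9.80) in the high spleens of cluster B. Its difference was 0.49 with the label alone and 0.91 with the block (SE 0.20, limma adjusted p = 0.604).

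**Figure D3:**
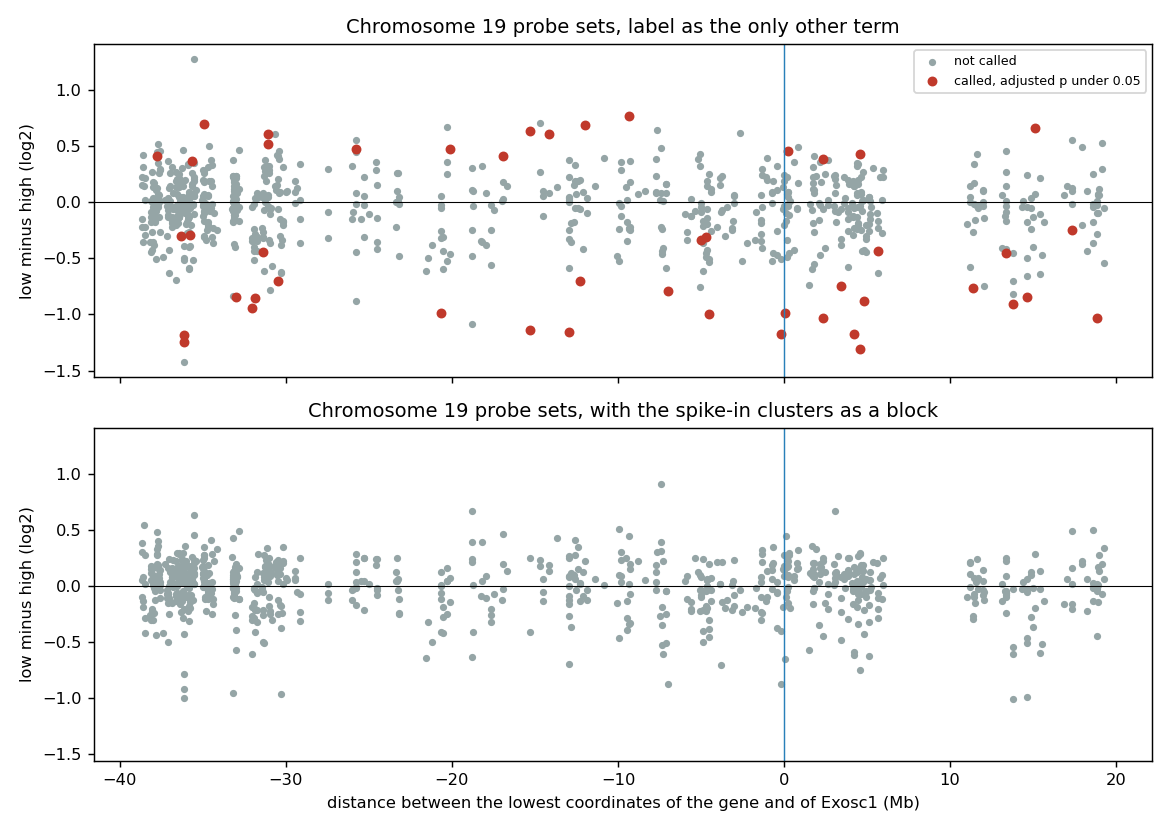
Difference between low and high spleens (log2) of the 823 tested chromosome 19 probe sets against the distance between the lowest coordinates of the gene and of Exosc1, in the fit with the label alone (upper panel) and with the spike-in clusters as a block (lower panel). The 47 called probe sets (red) are spread along the chromosome, with 16 within 10 Mb, and the lower panel has none.

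Away from chromosome 19 the largest lower difference was that of 1 probe set of Ptdss2, a phosphatidylserine synthase gene. This probe set was at 4.70 to 7.73 (median 5.25) in low and 4.66 to 10.20 (median 8.38) in high spleens. Its difference was -2.65 (SE 0.56, limma adjusted p = 0.0135) and -1.72 with the block. In the red cell anion exchanger gene Slc4a1 1 probe set differed by -2.33 (SE 0.64, limma adjusted p = 0.0351), and by -0.89 with the block. Wrn, the gene of a DNA helicase and exonuclease that is lost in Werner syndrome in humans, was among the 8 probe sets with the lowest adjusted p of the comparison, with Bves, Tes3-ps, Hdac4, Baz1b, Klf5, Rfc1 and an unnamed one. It was at 4.33 to 6.68 (median 6.18) in low and 5.46 to 8.85 (median 7.68) in high spleens, and 1 high spleen lay below the highest low one. Its difference was -1.92 (SE 0.33, limma adjusted p = 0.00597), -1.09 with the block (SE 0.30, limma adjusted p = 0.621) and -0.80 within cluster B. Over the low spleens the probe sets of Ptdss2 and Wrn had means of 5.62 and 5.78, and that of Slc4a1 6.70. A probe set needed a mean of 6.49 over all arrays to be tested, so those of Ptdss2 and Wrn passed through the high spleens.

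The median of Wrn was 7.20 in the high spleens of cluster B, 7.58 in cluster C and 8.37 in cluster A. The level thus differed among the high spleens as well, in the reverse order of their Gapdh ratios. The rest of the 12 largest lower differences, each of 1 probe set, ran from -1.89 to -1.51. Among them were those of Nr3c1 (glucocorticoid receptor), Rif1 (telomere and replication timing factor), Rexo1 (RNA exonuclease) and Aspm (spindle pole). With the block this rest of the 12 ran from -1.46 to -0.32.

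Among the tested probe sets, higher differences away from chromosome 19 were smaller than lower ones. The filter uses the mean over all arrays, and 30 of these are high spleens. A probe set dim in low spleens thus passes it more easily than one dim in high spleens. The sizes of lower and higher differences were not compared without the filter. Depp1, a FoxO-responsive autophagy gene, was at 7.69 to 10.99 (median 9.01) in low and 6.02 to 9.40 (median 7.61) in high spleens, giving a difference of 1.47 (SE 0.43, limma adjusted p = 0.0421) and 1.06 with the block. Nme1, a nucleoside diphosphate kinase gene, was 1.23 higher by 1 probe set (SE 0.32, limma adjusted p = 0.0298) and 0.36 with the block. Fcrl1, a B cell surface receptor gene, was 1.05 higher (SE 0.23, limma adjusted p = 0.0135), and 4 of 30 high spleens reached the range of the low ones. Fscn1, an actin bundling protein gene of dendritic cells, was 1.04 higher and Egr2, an early response transcription factor gene, 0.92 higher. The blocked differences of these genes were 0.68 for Fcrl1, 0.34 for Fscn1 and 0.19 for Egr2, and none was called.

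The called probe sets differed in brightness and often disagreed within a gene. Those called lower had a median level of 8.46 over the 36 arrays, those called higher 9.87, and all tested probe sets 8.74. In 17 genes 1 probe set was called lower and another higher. Trim8, a ubiquitin ligase gene 4.58 Mb from Exosc1, was lower by its dimmer called probe set (difference -1.31, SE 0.30, limma adjusted p = 0.0161) and higher by the brighter one (0.43, SE 0.09, limma adjusted p = 0.0128). Scd2, a fatty acid desaturase gene on the same chromosome, was lower by its dimmer called probe set (-1.04) and higher by the brighter one (0.39). The same held for Smarca2, a chromatin remodelling ATPase gene (-1.14 and 0.63), for Laptm5, a lysosomal gene of blood cells (-1.31 by 1 probe set, 0.42 and 0.50 by 2 others), and for Rictor, Cbl and Tgfbr1. With the block the 19 probe sets called lower in these 17 genes ran from -0.75 (Trim8) to 0.01 (Laptm5) and the 18 called higher from 0.04 to 0.52, and none was called.

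In 16 of the 17 genes the dimmest called probe set was the one that was lower, and Cep85 was the exception. Of the 568 genes called lower that had another tested probe set, 777 of 1272 such probe sets (61.1%) had a difference below 0, with a median of -0.07 where the called ones had -0.76. Of the 282 genes called higher, 331 of 603 other probe sets (54.9%) had a difference above 0, with medians of 0.05 and 0.47. In the dimmer probe set of Trim8 the high spleens of clusters B, C and A had medians of 6.69, 6.95 and 7.43, and the low spleens 5.92. The part that the Gapdh ratio or the cluster plays in these differences was not tested beyond the fits with them as terms.

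**Figure D4:**
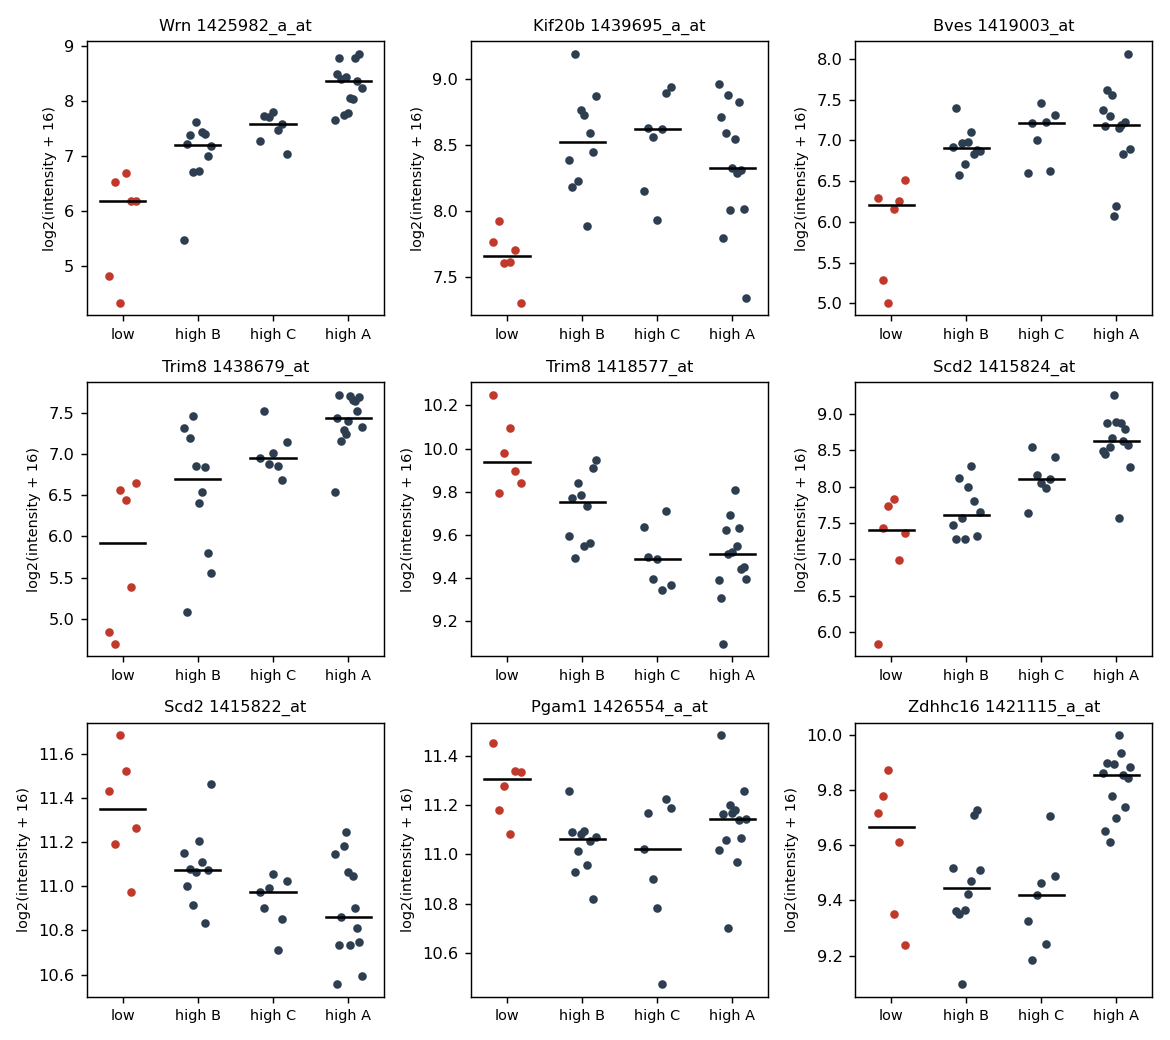
Levels (log2 of intensity + 16) of 9 probe sets in the 6 low spleens and in the high spleens of spike-in clusters B (10), C (7) and A (13), with 1 point per array and a line at the median. For Wrn and the dimmer probe sets of Trim8 and Scd2 the medians rise from low through B and C to A, whereas Kif20b and Bves are lower in low spleens than in each set of high ones.

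No other subunit of the RNA exosome core was called at its representative probe set. Of the 10 tested core genes besides Exosc1, none was called, against 3.14% of all tested genes, and their median difference was -0.04 where that of all genes was 0.03. The nuclease gene Dis3 came closest, at 8.99 to 9.70 (median 9.23) in low and 9.01 to 10.31 (median 9.62) in high spleens, differing by -0.37 (SE 0.14, limma adjusted p = 0.0966) and -0.13 with the block. Dis3l, its cytoplasmic relative, differed by 0.39 (SE 0.15, limma adjusted p = 0.106). The remaining cap subunits Exosc2 and Exosc3 differed by -0.19 and -0.22, the ring subunits Exosc4, Exosc5, Exosc7, Exosc8 and Exosc9 by -0.02, 0.05, -0.04, -0.13 and 0.17, and the nuclease Exosc10 by -0.03. Exosc6 lay below the filter on low probe sets.

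Among 14 cofactors 1 was called, where 3.14% of all genes were. Zcchc7, the RNA-binding partner in the nuclear polyadenylation complex that feeds the exosome, was at 11.10 to 11.85 (median 11.41) in low and 10.48 to 11.50 (median 10.996) in high spleens, with a difference of 0.49 (SE 0.12, limma adjusted p = 0.0252) and 0.24 with the block. The cytoplasmic Ski complex genes Skiv2l and Ttc37 differed by 0.43 and 0.47 (limma adjusted p = 0.0659 and 0.0755), and Mtrex by -0.11. The median of the 14 was 0.12, and 0.00 with the block.

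The gene groups close to the exosome's work are read against the same 3.14%. Of 20 genes of ribosomal RNA processing none was called (median 0.06), and of 15 genes of other RNA decay none (median 0.10). Among 10 host genes of small nucleolar RNAs and other noncoding RNAs, Malat1 alone was called, and the median was 0.02. Among 10 p53 targets, Ccng1 was higher by 0.33 (SE 0.09, limma adjusted p = 0.0384) and by 0.13 with the block, and the median was 0.01. In the class switching list 1 of 10 was called, Irf4, at 10.28 to 10.85 (median 10.54) in low and 9.36 to 10.73 (median 10.11) in high spleens, giving a difference of 0.39 (SE 0.12, limma adjusted p = 0.0487) and 0.34 with the block.

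Among markers of the cells in a spleen 1 or 2 genes were called in each of the B cell, T cell, monocyte, cell cycle and plasma cell lists, and none in the other lists, where 3.14% of all tested genes were called. In whole tissue, fewer cells of a type and less RNA per cell cannot be told apart. Counts of genes above or below 0 in these lists are read against all 12426 tested genes. Of those, 5641 had a difference below 0 with the label alone and 5027 with the block. Of 11 B cell genes, 10 had a difference above 0 (median 0.24) and Fcer2a, the low-affinity IgE receptor of mature B cells, was called at 0.46 (SE 0.14, limma adjusted p = 0.0483). Of 10 T cell genes, 9 were above 0 (median 0.36) and Lef1, a transcription factor of naive T cells, was called at 0.76 (SE 0.21, limma adjusted p = 0.0391). With the block the medians were 0.17 and 0.16, and the differences were 0.21 for Fcer2a and 0.36 for Lef1. The summed intensity of the T cell markers was 11321 to 16269 in low and 6384 to 17330 in high spleens, so the groups overlapped.

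Of 8 monocyte genes all had a difference below 0 (median -0.34, and -0.13 with the block) and 2 were called. The integrin gene Itgam was at -1.08 (SE 0.30, limma adjusted p = 0.0355). Ms4a6c was at -0.70 (SE 0.20, limma adjusted p = 0.0408). Their blocked values were -0.38 and -0.12. Ms4a6c lies on chromosome 19, and its other probe set differed by 0.21, or 0.23 with the block, and was not called. Of 13 cell cycle genes 12 were below 0 (median -0.21) and 2 were called, the mitotic kinase genes Aurkb at -0.62 (SE 0.18, limma adjusted p = 0.0425) and Cdk1 at -0.60 (SE 0.17, limma adjusted p = 0.0427), with a blocked median of -0.32 and blocked values of -0.34 and -0.37. All 11 neutrophil genes were below 0 with the label alone (median -0.66) and with the block (median -0.95), and none was called. Their summed intensity was 47979 to 114884 in low and 42714 to 214054 in high spleens. All 9 erythroid genes were below 0 as well (medians -0.32 and -0.27), and none was called.

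The lists of natural killer cells and of red pulp macrophages had medians of -0.33 and -0.34 with the label alone and 0.14 and 0.05 with the block. The interferon response, stroma, plasma cell, megakaryocyte, adipose, mast cell and pancreas lists had medians of -0.31, 0.29, 0.12, 0.38, -0.67, -0.53 and -0.99, and Irf4, also counted among plasma cell genes, was the sole called member. For the pancreas list the median was -0.04 with the block, and its summed intensity reached 70982 in high spleens and 2515 in low ones. Among the genes that divide the spleens of this series into high and low sets of their own, H2-Ea differed by 1.14, H2-Eb1 by 1.11, Mndal by -1.11, Adamdec1 by 1.41, Gbp2b by 1.08, Zfp949 by -0.52 and Oas1b by -0.07, and none was called. In Gbp2b, an interferon-induced GTPase gene, all 6 low spleens lay between 9.01 and 9.94, and the high spleens between 4.65 and 9.89.

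**Figure D5:**
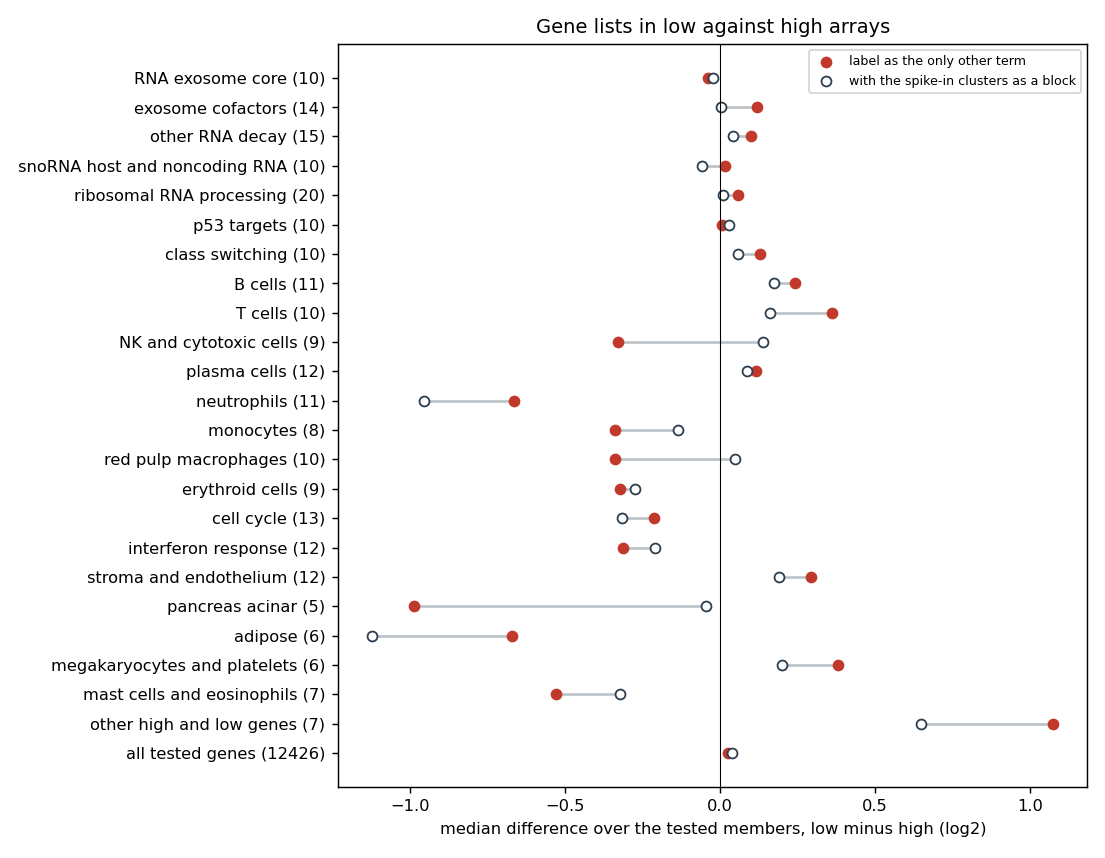
Median difference between low and high spleens (log2) over the tested members of each gene list, with the number of members in brackets, in the fit with the label alone (filled) and with the spike-in clusters as a block (open). The exosome core stays within 0.04 of 0 in both, and the natural killer and red pulp macrophage lists change sign, as does that of snoRNA hosts and noncoding RNAs (0.02 to -0.06).

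The probe sets most like the grouping probe set of Exosc1 across the 36 arrays were ranked by Pearson correlation among the representative probe sets of genes. The arrays share the grouping that chose them, so the correlations are a description. Bves, a membrane protein gene of muscle and epithelium, came first (r = 0.675), followed by Kif20b (0.652), the mitophagy receptor gene Bcl2l13 (0.635), Pdzd8 (0.618), which tethers organelle membranes and is also on chromosome 19, Ces5a (0.588) and Mettl4 (0.580). The most opposite were Topors (-0.568), Papss2 (-0.567), Nkapd1 (-0.557), Rabgap1l (-0.544), Cds2 (-0.542) and Phtf2 (-0.540). Within the 16 arrays of cluster B the coefficients were 0.807 for Bves, 0.790 for Kif20b and -0.664 for Papss2.

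Bves was at 5.01 to 6.52 (median 6.20) in low and 6.07 to 8.06 (median 7.06) in high spleens, and 2 high spleens lay below the highest low one. Its difference was -1.16 (SE 0.21, limma adjusted p = 0.00597), -1.06 with the block (SE 0.25, limma adjusted p = 0.621). The high spleens of cluster B began at 6.58, above every low spleen. Of all tested probe sets 5 lay lower without overlap within cluster B in this way (0.0185%) and 5 higher (0.0185%). None of those with a known chromosome was on chromosome 19, and the unnamed ones had no chromosome assigned. Among the higher ones was a second probe set of the nuclease subunit Exosc10, which was singled out after its values were seen and was not called in either fit. Its lowest low spleen was at 9.593 and the highest high spleen of cluster B at 9.592. The difference was 0.18, or 0.27 with the block.

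The difference between low and high spleens was also compared between the labels. The interaction of label and class was called for 0 of 27019 probe sets in limma, with 1517 at an unadjusted p under 0.05 and a lowest adjusted p of 0.613. Among the 18 arthritic spleens alone, 4 low against 14 high, 1525 probe sets were called (5.64%), 64 of 823 on chromosome 19 (7.78%) and 1258 of 21720 on others (5.79%). Among the 18 non-arthritic spleens, 2 low against 16 high, limma called 0, with 790 at an unadjusted p under 0.05. In the grouping probe set itself the difference was -2.93 in arthritic and -2.66 in non-arthritic spleens. All 4 low arthritic spleens lay in cluster B, whereas the 14 high ones were 9 in cluster A, 2 in B and 3 in C. Of the 16 high non-arthritic spleens, 8 were in cluster B with the 2 low ones, 4 in A and 4 in C. Cluster was not a term when each label was fitted alone, and its part in these counts was not tested.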

How the data were processed

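Total RNA of each spleen was hybridised to 1 Affymetrix array, per the labels. The authors made the deposited table of linear-scale intensity with MAS5, per the submitters' processing notes, in a version they do not name. The trimmed mean was 500 on each array (2% off each end) and median intensities were 110.6 to 183.2. Precision is limited by how many arrays there are. Arrays were taken as separate animals, from the 18 with and 18 without arthritis in the design text, which also gives 13 F2 mice.

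Values were used as log2(intensity + 16) without further normalization, which understates the change of dim probe sets. Of 45037 probe sets that are not controls, 27022 had a mean at or above the 40th percentile (6.49) and were tested, 3 of them for Exosc1. The platform annotation names 1 gene for 34945 probe sets, several for 932 and lists none for 9160, and 34741 matched the RefSeq table (GRCm38.p6), which gave chromosomes, distances between the lowest coordinates of genes, whatever their strand, and the promoter. A gene was represented by its brightest probe set. Low and high spleens were compared with limma 3.58.1 in R 4.3.3 (lmFit, eBayes with a trend, label as a term, two-sided, Benjamini-Hochberg adjustment, threshold 0.05). The fit was checked on simulated arrays with independent noise and no clusters, so that check does not cover differences between clusters. Spike-in clusters are 3 Ward clusters of 18 hybridisation control probe sets, centred per array. Figures were drawn with matplotlib 3.10.9 in Python 3.11.15.

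Members, lists and tests were chosen with earlier results of these data known. Named genes are the 10 nearest tested genes on each side of Exosc1, the 20 largest called differences on chromosome 19, the 12 largest in each direction elsewhere, up to 4 members of each list by unadjusted p, every exosome core gene, and the 6 genes most like and most opposite to the grouping probe set. Alternatives were another pseudocount, filter, normalization, variance prior, threshold or class term, the spike-in clusters, the replicate numbers or the Gapdh ratio as a term, each label alone, and each array left out.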

Additional observations from a re-analysis of the deposited data

Results flagged for a closer look

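In 8 of 106 values examined over the 6 low spleens, 1 array lay so far from the other 5 that its gap was more than 0.625 of the group's range (Dixon's critical value for 6 samples); chance gives about 5% of such groups. Arthritic replicate 14 stood apart in its actin 3 prime to 5 prime ratio, 2.74 against 1.27 to 1.70. It also did so in the called probe set of Incenp, 5.99 against 7.77 to 8.43. Arthritic replicate 15 was at 5.23 in Ints5, a subunit gene of the Integrator complex (the others at 6.54 to 7.15), and at 9.80 in Papss2 (9.13 to 9.36). Non-arthritic replicate 15 was at 7.73 in Ptdss2 (4.70 to 5.74) and at 7.50 in Rrp12, a ribosome biogenesis gene (8.17 to 8.44). Arthritic replicate 10 was at 11.92 in Tm9sf3 (its brightest probe set, the others at 11.74 to 11.80), and non-arthritic replicate 3 at 8.56 in Arhgap19 (its brighter probe set, the others at 9.77 to 10.29).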

How the results depend on the processing

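Against 47 called probe sets on chromosome 19 and 1036 on other chromosomes, limma gave 0 and 0 with the spike-in cluster block, within spike-in cluster B, with the level in place of the class, in non-arthritic spleens alone and, among settings added after the data were seen, with the Gapdh ratio as a covariate, outside cluster A, and with the cluster block without arthritic replicate 14. It gave 0 and 2 with the threshold at the widest gap (6.69), 0 and 19 without the 2 low spleens of intermediate level, 27 and 489 with no filter, 21 and 361 with no label term, and 32 and 578 with quantile normalization. Pseudocounts of 1 and 64, the stricter filter, the variance prior without trend and arthritic spleens alone kept both counts within 1.5 times of these values. Leaving out each array in turn gave 1 to 106 and 1 to 2492. The count over all chromosomes moved by over 1.5 times without arthritic replicates 2 to 10 (677 to 799 for replicates 2 to 9 and 721 for replicate 10), 14 (2), 15 (166), 16 (275), 17 (2086) and 18 (3000) and non-arthritic replicate 15 (2206). The split of higher against lower moved with the filter, to 576 against 653 at the 60th percentile and 154 against 445 with none.

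The replicate numbers gave no pairing. Of 18 same-numbered pairs 11 had a correlation of deviations above 0.1 (range -0.23 to 0.47), and 2 arrays correlated best with their own number. The replicate block gave 0 and 0 calls, with 3529 unadjusted p under 0.05. The label by class interaction gave 0 calls under the cluster block and without arthritic replicates 10, 14 or 16, and 1 without arthritic replicate 15. The exact p of low spleens by label was 0.338 to 0.658 over its alternatives. Of 62 called differences of named genes, 62 lost the call with the cluster block and 60 without arthritic replicate 14. Within cluster B, the called probe set of Incenp changed sign to 0.057 and 1 of Egr2 to -0.028. The other probe sets of Incenp did not change sign there, at -0.03, -0.51 and -0.14. With the cluster block and arthritic replicate 14 left out, the called probe set of Incenp was at 0.018 and 2610507B11Rik at 0.085. The causes were not tested.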
